A study of Mus musculus with 83 samples.

Results

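The colon of male C57BL/6J/Ukj mice was compared between 15 months (15 mo) and 3 months (3 mo) of age, an interval that runs from young adulthood to midlife and ends before late life begins. The mice were chosen by the age in their sample labels, 16 at 3 mo and 16 at 15 mo, which makes 32 of the 83 mice of the series. The 3 mo and 15 mo mice had the same strain, sex and tissue, and no engineered allele or treatment is described for them. Age is the only label that separates the groups besides the library batch. The paper states that the samples came from a larger study of several variables. RNA came from the proximal section of the colon, was enriched for poly(A) and was sequenced as stranded libraries in 3 preparation batches, which held 5, 6 and 5 of the 3 mo mice and 5, 7 and 4 of the 15 mo mice. The other ages, 9 mo (16 mice), 24 mo (17) and 28 mo (18), share the fit and its estimate of spread, and are compared below to place the 15 mo level. All 17 mice of 24 mo were kept. The paper left a 24 mo mouse out of its methylation data as an outlier, and its expression figures give 16 mice at that age.

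The colon wall holds a single-layered epithelium of absorptive colonocytes, mucus-secreting goblet cells and scattered hormone and tuft cells, renewed from crypt stem cells. Beneath it lie plasma cells that export IgA into the lumen through the epithelial receptor Pigr, and outside these a muscle coat with the enteric nervous system. Goblet cells and their neighbours also secrete antimicrobial proteins that keep bacteria of the lumen away from the epithelium.

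Libraries of 3 mo mice held 26758538 to 46046256 read pairs assigned to genes (median 36054912), and those of 15 mo mice 30201621 to 52924608 (median 34386697). The tissue label was borne out by its markers in all 32 mice. The intestinal transcription factor Cdx2 lay between 245 and 507 CPM (counts of a gene relative to the scaled total counts of its library), the brush border gene Vil1 between 425 and 985, the mucin Muc2 between 8670 and 22500, the chloride exchanger Slc26a3 between 288 and 549 and smooth muscle myosin Myh11 between 216 and 1280. Libraries that stood apart were the 3 mo mice 10, 12 and 16, with scores of 59.4, 38.7 and 65.3 on the first principal component (16.5% of the variance), where the other 29 mice lay at or below 12.6. These 3 mice also held the least smooth muscle RNA, with Actg2 at 97.1, 169 and 91.9 CPM against 296 or more in the other 3 mo mice. The 15 mo mouse 16 had the lowest Muc2 (8670 CPM) and Muc3 (378 CPM) and the highest mt-Co1 (25800 CPM) of the 32.

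Of 18325 genes tested, 1420 passed an adjusted p of 0.1 between 15 mo and 3 mo (7.75%), 779 higher at 15 mo (4.25%) and 641 lower (3.5%). Most of these differences were small. The median absolute log2 fold change of the called genes was 0.35, and 407 of them differed by more than 1.5-fold and 153 by more than 2-fold. The direction was the same in each of the 3 library batches for 1369 of the 1420. Without the 3 mo mice 10, 12 and 16 the count was 1478, of which 1085 were among the 1420. All fold changes below are 15 mo relative to 3 mo on the log2 scale with their standard error, and levels are CPM.

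In 21 genes every 15 mo mouse lay above every 3 mo mouse (0.115% of tested genes), and in 15 every 15 mo mouse lay below (0.0819%). Vsig2, which encodes a membrane protein with immunoglobulin domains (chromosome 9, 37539255 to 37544205 on the plus strand of GRCm38), had the lowest p-value of the rises. It lay between 15.8 and 26.0 CPM at 3 mo (median 22.3) and between 47.9 and 66.0 at 15 mo (median 54.4), a log2 fold change of 1.35 ± 0.06 (adjusted p = 4.15e-34). No 15 mo mouse came near the 3 mo range.

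Dmrta2, a transcription factor of the DM-domain family (chromosome 4, 109978053 to 109983687), was near the limit of detection at 3 mo, with 0.11 to 0.44 CPM (median 0.27). At 15 mo it lay between 1.51 and 3.70 CPM (median 2.44), with a log2 fold change of 3.14 ± 0.14 (adjusted p = 4.53e-32). Its mean was 0.54 CPM at 9 mo, 9.85 at 24 mo and 12.2 at 28 mo. In mice that take no part in the comparison of 15 mo with 3 mo it was again higher at 24 mo than at 9 mo, by 4.20 ± 0.13 (adjusted p = 4.08e-43).

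**Figure D1:**
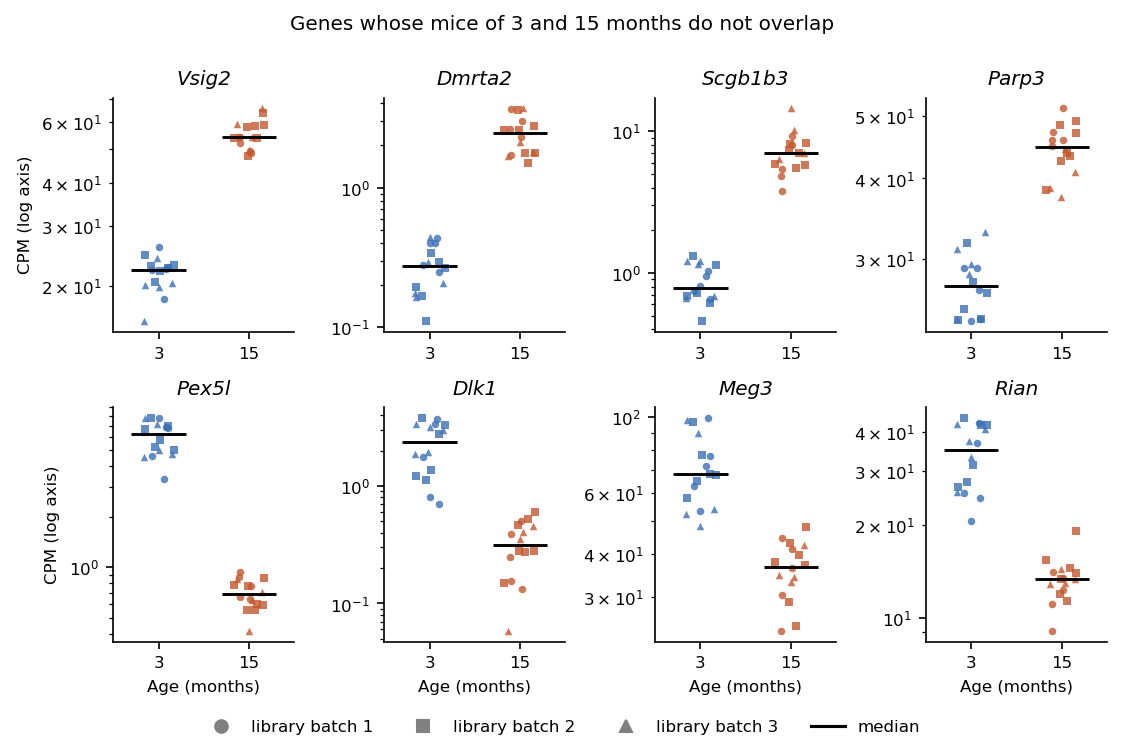
Expression of 8 genes in each of 16 mice at 3 mo and 16 at 15 mo, as CPM on a log axis. Points are mice, shapes are library batches and lines are medians. In each panel all 15 mo mice lie on one side of all 3 mo mice, from Dmrta2 (0.11 to 0.44 against 1.51 to 3.70 CPM) to Pex5l (3.35 to 7.80 against 0.416 to 0.936 CPM).

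Secretoglobins, small secreted proteins that in mice form a large cluster on chromosome 7, gave 4 of the 21 genes. Scgb1b3 lay between 0.456 and 1.31 CPM at 3 mo and between 3.78 and 14.5 at 15 mo, with a log2 fold change of 3.05 ± 0.16 (adjusted p = 2.44e-28). Scgb2b20 rose by 3.15 ± 0.20, Scgb2b15 by 2.36 ± 0.18 and Scgb2b10 by 2.27 ± 0.15, and the ranges of the ages were apart in each. The mean of Scgb1b3 was already 4.67 CPM at 9 mo, against 0.879 at 3 mo and 7.31 at 15 mo. These genes have near-identical copies, so how uniquely mapped reads split between them is uncertain.

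Other rises with separate ranges came from genes of varied function. Parp3, an ADP-ribosyltransferase of the DNA damage response, lay between 24.1 and 33.1 CPM at 3 mo and between 37.5 and 51.4 at 15 mo (0.69 ± 0.05, adjusted p = 5.68e-20). P2rx7, an ATP-gated cation channel, lay between 13.1 and 18.0 CPM and then between 20.6 and 27.3 (0.53 ± 0.04, adjusted p = 4.74e-19). Kif26a, an unconventional kinesin, went from a median of 11.1 to 26.2 CPM (1.17 ± 0.08). The potassium channel Kcnk10 went from 1.32 to 3.94 (1.55 ± 0.12), the adhesion molecule Ceacam10 from 69.2 to 132 (0.95 ± 0.07), and the flavin monooxygenase Fmo4 from 3.74 to 5.83 (0.73 ± 0.08). Corneodesmosin (Cdsn), an adhesion protein of cornified epithelium, rose by 1.22 ± 0.11 from a median of 2.03 to 4.83. None of these genes lost its call when any one mouse was left out.

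Among the falls with separate ranges was Pex5l, a relative of the peroxisomal import receptor that binds cyclic nucleotide-gated pacemaker channels. It lay between 3.35 and 7.80 CPM at 3 mo (median 6.23) and between 0.416 and 0.936 at 15 mo (median 0.689), a fall of 3.10 ± 0.13 on the log2 scale (adjusted p = 2.71e-33). Its mean was 1.44 CPM at 9 mo, 0.713 at 24 mo and 0.788 at 28 mo. Aldh1l1, an enzyme of folate metabolism, fell by 1.00 ± 0.09 from a median of 34.1 to 17.4 CPM, and Nags, which makes the activator of the urea cycle, fell by 0.56 ± 0.09. The lipase Lipo3 fell by 1.01 ± 0.07, the band 4.1 protein Epb41l4a by 0.99 ± 0.08, the Golgi protein gene Casc4 by 0.55 and the trophoblast glycoprotein Tpbg by 0.45. Bhmt2, a methyltransferase that regenerates methionine, had 9 to 28 read pairs in every 3 mo mouse and 0 to 2 in the 15 mo mice, 10 of which had none. Rps4l, a ribosomal protein S4 pseudogene in the annotation, fell by 3.47 ± 0.15, while its parent gene Rps4x differed by -0.04 ± 0.04 (adjusted p = 0.677).

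The imprinted Dlk1-Meg3 domain on chromosome 12 gave 4 of the 15 genes with lower, separate ranges. Dlk1, a paternally expressed ligand-like protein of fetal growth, lay between 0.701 and 3.82 CPM at 3 mo (median 2.38) and between 0.0583 and 0.602 at 15 mo (median 0.318), a fall of 2.82 ± 0.25 (adjusted p = 1.33e-15). The maternally expressed non-coding RNA Meg3 (109541001 to 109571726) lay between 48.2 and 99.4 CPM and then between 23.9 and 48.1, a fall of 0.98 ± 0.11 (adjusted p = 2.76e-10). The non-coding RNAs downstream of it on the same strand fell further, Rian by 1.36 ± 0.10 and Mirg by 1.89 ± 0.13.

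The other ages gave the following levels. Mean Meg3 was 39.9 CPM at 9 mo, 36.3 at 15 mo and 38.0 at 28 mo, and 24 mo differed from 9 mo by -0.01 ± 0.11 (adjusted p = 0.979). Mean Dlk1 was 0.795 at 9 mo and 0.186 at 28 mo, and fell further from 9 mo to 24 mo, by 1.89 ± 0.26 (adjusted p = 1.25e-07). Begain, the neighbour of Dlk1 on the other side of the domain, moved the other way (0.33 ± 0.11, adjusted p = 0.0434), and lost the call without the 3 mo mice 10, 12 and 16.

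Within the wider list of growth and imprinted genes, 6 of 23 tested members fell and 2 rose. Besides Dlk1 and Meg3 these were the cell cycle inhibitor Cdkn1c (-0.34 ± 0.07), the zinc finger genes Peg3 (-0.45 ± 0.12) and Plagl1 (-0.34 ± 0.11) and the receptor Igf1r (-0.17 ± 0.06). Igf1r lost its call in 13 of 32 fits without one mouse and Plagl1 in 2. The growth factor Igf1 (0.36 ± 0.10) and its binding protein Igfbp2 (0.61 ± 0.20) rose, and both lost the call without the 3 mo mice 10, 12 and 16. The median of the list was 0.02, against 0.00 over all tested genes. The RNA-binding protein Igf2bp1, another gene of fetal growth, named after its values were seen, fell by 1.03 ± 0.15, with 14 of 16 mice at 15 mo below all mice at 3 mo. Lin28b, from the same pathway, rose by 1.53 ± 0.30, but on 33 read pairs over all 3 mo mice and 98 over all 15 mo mice.

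Antibody and plasma cell genes rose together. In this list 10 of 15 tested members were higher at 15 mo and none was lower, with a median of 0.73. Igha, the heavy chain of IgA (chromosome 12), lay between 1492 and 3580 CPM at 3 mo (median 2228) and between 2100 and 11140 at 15 mo (median 2996), with a log2 fold change of 0.88 ± 0.20 (adjusted p = 0.00178). The ranges overlapped, and 15 of 16 mice at 15 mo were above the 3 mo median. The 15 mo mice 15 and 1 held 11140 and 10880 CPM, and the next held 5390.

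Other members were also called. Light chain Igkc differed by 0.86 ± 0.18, the joining chain Jchain, which links IgA units for export, by 0.73 ± 0.18, and the chaperone Mzb1 of plasma cells by 0.95 ± 0.20. The plasma cell regulators Irf4 (0.73 ± 0.18) and Prdm1 (0.39 ± 0.10) were also higher. Leaving out each mouse in turn left between 8 and 12 members higher. The CPM summed over the list lay between 3512 and 7775 at 3 mo and between 4902 and 21825 at 15 mo. In bulk tissue, more cells of a type and more RNA per cell cannot be told apart.

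Heavy chains of the IgG class were named after their values were seen. Ighg2c lay between 31.7 and 135 CPM at 3 mo (median 67.2) and between 169 and 340 at 15 mo (median 239), with no overlap, a rise of 1.79 ± 0.20 (adjusted p = 5.4e-11). Ighg2b rose by 1.47 ± 0.23, with 15 of 16 mice at 15 mo above all 3 mo mice. Both were higher again at 24 mo than at 9 mo, Ighg2c by 1.41 ± 0.20 and Ighg2b by 1.12 ± 0.22, where 8.93% of all tested genes were higher. For Ighg1 (0.75 ± 0.52, adjusted p = 0.491) and Ighg3 (0.45 ± 0.46, adjusted p = 0.68) the spread between mice was too wide for a call.

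Variable segments behaved unevenly. Of 175 tested heavy and light chain V genes, 25 were higher and 2 lower, and 128 had a positive fold change. In 10 of the 27 called segments a single mouse held more than 50% of the reads of all 32, which was so for 17 of the 175 tested.

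**Figure D2:**
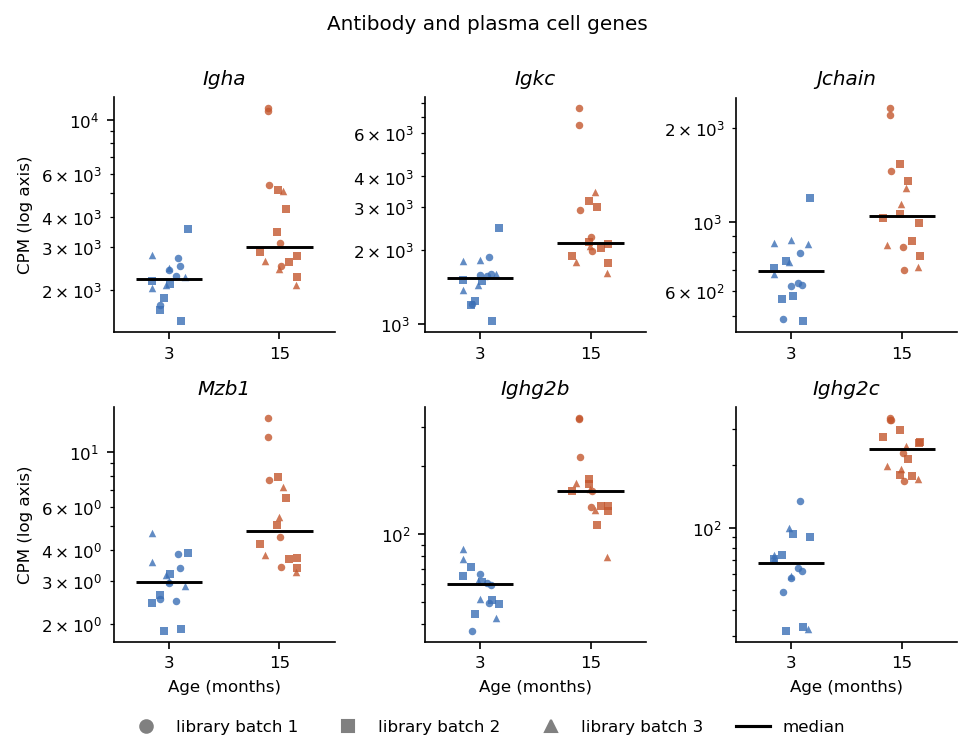
CPM on a log axis of 6 antibody and plasma cell genes in each of 16 mice at 3 mo and at 15 mo, with shapes for library batches and lines for medians. The ranges of Igha overlap (1492 to 3580 against 2100 to 11140 CPM) and those of Ighg2c do not (31.7 to 135 against 169 to 340 CPM).

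B cell and follicle genes did not rise with the antibody genes. The list had 1 member higher of 18, the chemokine Cxcl13 (0.71 ± 0.13), and a median of -0.55 with wide spread, its summed CPM lying between 34.4 and 233 at 3 mo and between 48.1 and 175 at 15 mo. No member was called lower, but 6 were without the 15 mo mouse 16. The IgM receptor Fcmr (-1.53 ± 0.48), which was among the 12 largest falls, is expressed by B cells. It lost the call without the 3 mo mouse 14 (adjusted p = 0.106), in the fit with the replicate number as a block, and in the fit to mice of 3 mo and 15 mo only.

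Other immune groups had few called genes, and the groups as such were not tested. Of 26 T cell and intraepithelial lymphocyte genes, the cytokine receptor Il7r rose (0.56 ± 0.09) and the natural killer receptor Klrd1 fell (-0.54 ± 0.11). The related receptor Klra7 fell with separate ranges (-1.69 ± 0.28). Of 20 macrophage genes, 2 rose, the lectin receptor Cd209f (1.21 ± 0.20) and Retnla (0.94 ± 0.28), a product of macrophages under type 2 cytokines. The mast cell tryptase Tpsb2 was the only 1 of 6 tested mast cell genes called (0.63 ± 0.15). All 6 had a positive fold change, with a median of 0.50. Their summed level had a median of 3.71 CPM at 3 mo and 5.82 at 15 mo. By edgeR's quasi-likelihood test and by DESeq2, 0 of 36 interferon-stimulated genes and 0 of 10 MHC class II genes were called, with 1 and 3 of them at an unadjusted p below 0.05. The class II chain Cd74 lay between 248 and 524 CPM at 3 mo and between 325 and 763 at 15 mo (0.35 ± 0.17, adjusted p = 0.256).

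Complement genes had 5 of 18 tested members higher and none lower. The terminal components C6 (0.86 ± 0.16) and C7 (0.83 ± 0.17) rose most, and the membrane inhibitor Cd55 (0.32 ± 0.10) and C4b (0.25 ± 0.09) rose less. Without the 15 mo mouse 15 the count was 3, and the adjusted p of Cd55 was 0.189. C4b lost its call in 5 of 32 fits without one mouse, those without the 3 mo mouse 10, 12 or 16 among them, and without all 3 of these its adjusted p was 0.295.

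**Figure D3:**
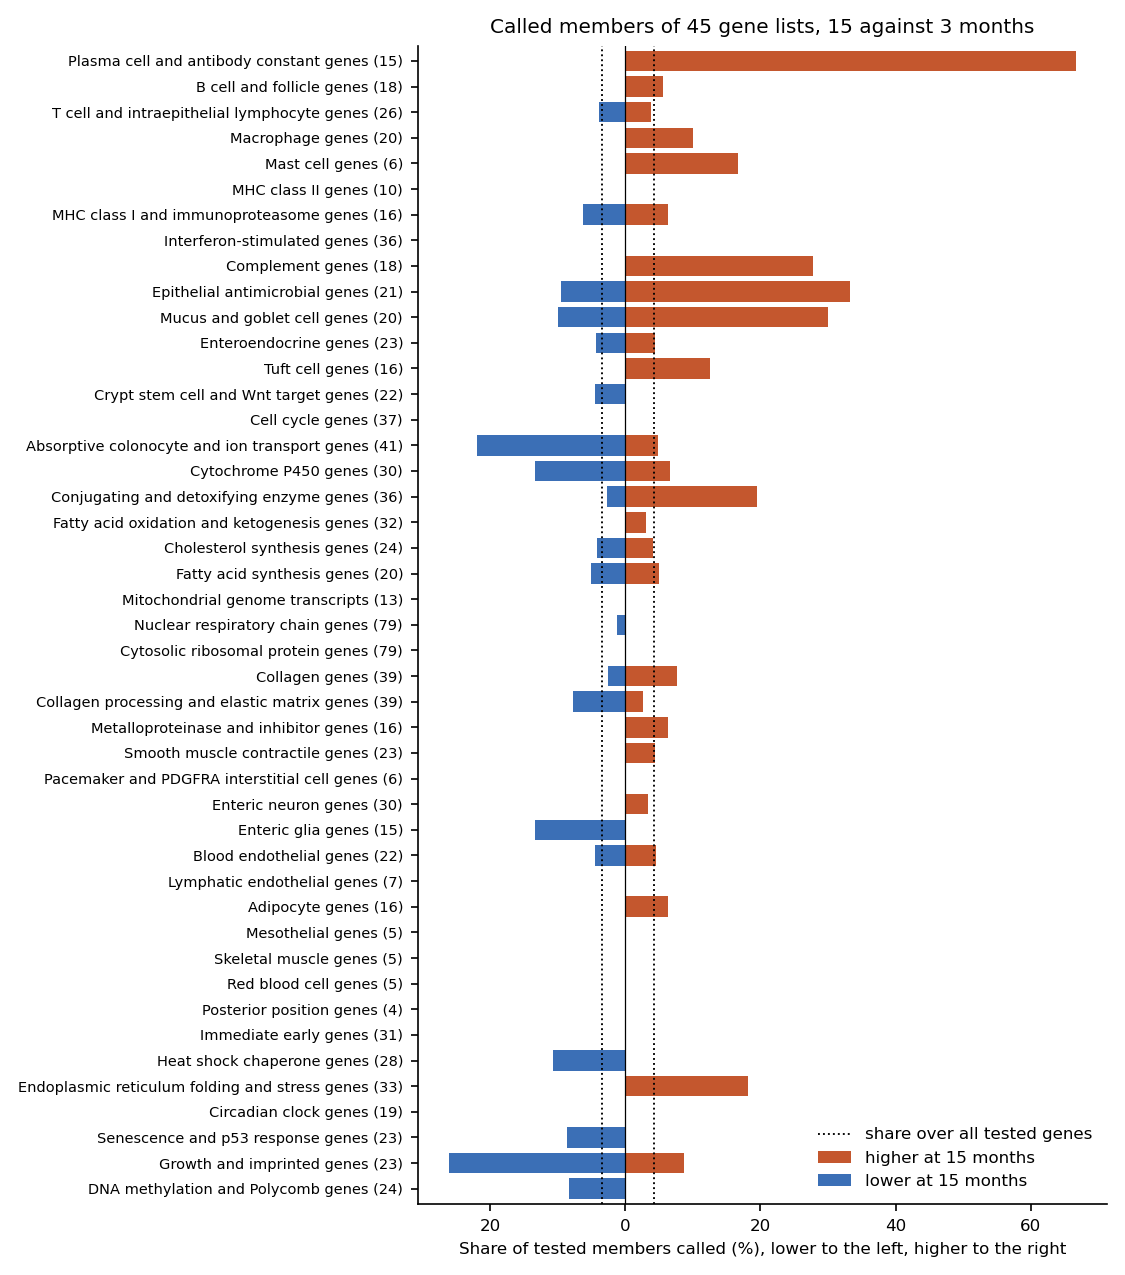
Share of the tested members of each of 45 gene lists called higher (right) or lower (left) at 15 mo than at 3 mo, in percent, with the number of tested members in brackets. The dotted lines mark the shares over all 18325 tested genes (4.25% higher, 3.5% lower). The longest bars belong to the plasma cell list (10 of 15 higher) and, to the left, to growth and imprinted genes (6 of 23 lower).

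Some of the 12 largest rises taken by the naming rule varied widely between mice. Pla2g4c, a cytosolic phospholipase, lay between 2.76 and 106 CPM at 3 mo (median 11.7) and between 3.59 and 849 at 15 mo (median 71.2), with a log2 fold change of 2.94 ± 0.67 (adjusted p = 0.00166). The lipase Pnliprp2 had a median of 4.07 CPM at 3 mo and 38.1 at 15 mo (2.83 ± 0.54, adjusted p = 0.00013). The lectin intelectin (Itln1), which binds microbial sugars, went from 11.8 to 40.8 (1.94 ± 0.48, adjusted p = 0.00579). In all 3 the ranges overlapped, with 15, 15 and 14 of the 16 mice at 15 mo above the 3 mo median.

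In the antimicrobial list, 7 of 21 tested members rose and 2 fell. Retnlb (RELMβ), a goblet cell product that binds bacteria, lay between 137 and 769 CPM at 3 mo and between 132 and 3210 at 15 mo (1.25 ± 0.31, adjusted p = 0.00618). The ribonuclease Ang4 rose by 1.22 ± 0.39 (adjusted p = 0.0484), and lost its call without the 15 mo mouse 15 (adjusted p = 0.123), which held the highest values of Pla2g4c, Ang4 and Retnlb. The polymeric immunoglobulin receptor Pigr, which carries IgA across the epithelium, rose by 0.20 ± 0.06, with 10 of 16 mice at 15 mo above all at 3 mo.

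The hydrogen peroxide-producing oxidase Duox2 and its maturation factor Duoxa2 are neighbours on opposite strands of chromosome 2, with 450 bases between them. Duox2 rose by 0.60 ± 0.14 (adjusted p = 0.00187) and Duoxa2 by 0.98 ± 0.21 (adjusted p = 0.000856), together with the nitric oxide synthase Nos2 (1.29 ± 0.29, adjusted p = 0.00158). The 15 mo mice 1 and 15, which had the highest Igha, also had the highest Nos2, at 37.1 and 33.2 CPM. Next came mouse 7 with 18.8. Mice 1 and 15 were also highest in Duoxa2 (176 CPM each) and in Itln1 (169 and 203 CPM). The size differed by library batch. In batches 1, 2 and 3 the log2 fold change was 1.15, 0.59 and -0.08 for Duox2, 1.75, 0.81 and 0.20 for Duoxa2, and 2.25, 1.30 and -0.03 for Nos2. Batch 1 held the 15 mo mice 1, 7 and 15, with Duox2 at 690, 654 and 772 CPM. Batch 3 held the 3 mo mouse 14, with Duox2 at 553 CPM, and the 15 mo mouse 16, with Duox2 at 197 CPM. The difference between batches, and the part of single mice in it, was not tested.

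In the mucus and goblet cell list 6 of 20 tested members rose and 2 fell. Clca1, a secreted protein that processes mucus, lay between 3723 and 9660 CPM at 3 mo and between 3697 and 17917 at 15 mo (0.72 ± 0.19, adjusted p = 0.00981). Spink4 (0.44 ± 0.11), the protease Capn9 (0.32 ± 0.08), the mucus protein Fcgbp (0.36 ± 0.11), Fer1l6 (0.22 ± 0.07) and the vesicle protein Sytl2 (0.15 ± 0.05) were also higher. Fer1l6 lost its call without the 15 mo mouse 15 (adjusted p = 0.148), Sytl2 in 12 of 32 fits without one mouse, and Muc3 in 2 of them, and Sytl2 and Muc3 also lost theirs without the 3 mo mice 10, 12 and 16. The O-glycan enzyme B3gnt6 (-0.39 ± 0.07) and the mucin Muc3 (-0.22 ± 0.08) were lower. The 15 mo mouse 16 held 378 CPM of Muc3 and the other 15 mo mice at least 1430, and without this mouse the log2 fold change was -0.15. The gel-forming mucin itself, Muc2, differed by -0.04 (adjusted p = 0.826).

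The same genes were compared between the oldest ages. Mean Pla2g4c was 21.4 CPM at 3 mo, 73.8 at 9 mo, 163 at 15 mo, 87.9 at 24 mo and 12.5 at 28 mo. The comparison of 28 mo with 24 mo, which uses none of the 3 mo or 15 mo mice, gave falls of 2.77 ± 0.63 for Pla2g4c, 1.89 ± 0.51 for Pnliprp2, 2.03 ± 0.48 for Itln1, 1.56 ± 0.38 for Ang4, 1.07 ± 0.30 for Retnlb, 0.91 ± 0.18 for Clca1 and 0.76 ± 0.20 for Duoxa2. Their adjusted p-values ran from 0.000602 for Clca1 to 0.0174 for Retnlb, with 6.01% of all tested genes lower in that comparison. Of the 7 rises of the antimicrobial list 6 were lower at 28 mo than at 24 mo, Nos2 (-0.31 ± 0.27, adjusted p = 0.542) being the exception, and of the 6 rises of the mucus and goblet cell list 4 were lower, with Spink4 (0.03 ± 0.10) and Sytl2 (-0.04 ± 0.05) not called.

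**Figure D4:**
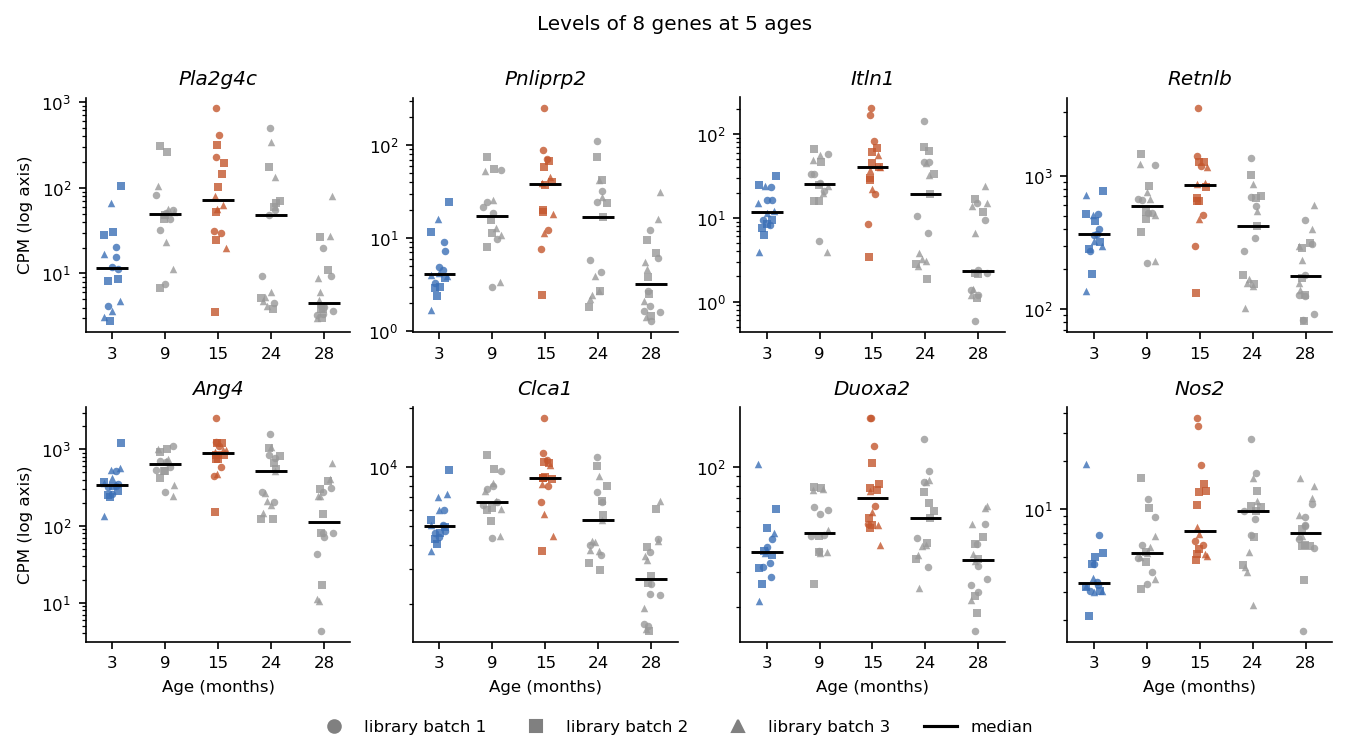
CPM on a log axis of Pla2g4c, Pnliprp2, Itln1, Retnlb, Ang4, Clca1, Duoxa2 and Nos2 in every mouse at 3, 9, 15, 24 and 28 mo, with 3 mo in blue, 15 mo in orange, shapes for library batches and lines for medians. Except for Nos2 the median is highest at 15 mo, and it is lower at 28 mo, as for Itln1 (40.8 against 2.31 CPM).

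The list of absorptive colonocyte and ion transport genes leaned the other way, with 9 of 41 tested members lower and 2 higher. The sodium channel subunit Scnn1b lay between 8.52 and 14.8 CPM at 3 mo and between 5.81 and 11.3 at 15 mo (-0.45 ± 0.09, adjusted p = 0.000143). Hsd11b2, which keeps cortisol-like hormones off the aldosterone receptor, lay between 191 and 398 and then between 90.2 and 216 (-0.46 ± 0.10, adjusted p = 0.00114). The sodium pump subunit Atp1b1 (-0.19 ± 0.05) fell slightly. The aldosterone receptor Nr3c2 (-0.04, adjusted p = 0.79) and the sodium channel subunit Scnn1a (adjusted p = 0.994) gave no call.

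Further falls in the list were the bile acid transporter subunit Slc51a (-0.31 ± 0.09), the amino acid transporter Slc6a14 (-0.21 ± 0.06), the metal exporter Slc30a10 (-0.65, adjusted p = 0.027), the anion channel Best2 (-0.79 ± 0.21) and the hormone Guca2a (-0.17 ± 0.06). Guca2a lost its call in 24 of 32 fits without one mouse and without the 3 mo mice 10, 12 and 16. The butyrate transporter Slc5a8 rose (0.30 ± 0.08), and the potassium channel Kcnn4 (0.13 ± 0.05) was at the threshold and lost its call in 16 of those fits. For Slc30a10 the log2 fold change within batches 1, 2 and 3 was -1.06, -0.80 and 0.04.

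The 12 largest falls of the naming rule included S100g and Cubn, known from the absorptive surface of the small intestine and kidney. S100g, the calcium-binding protein calbindin-D9k, lay between 9.10 and 56.4 CPM at 3 mo (median 19.3) and between 0.810 and 22.6 at 15 mo (median 6.37), a fall of 1.63 ± 0.37 (adjusted p = 0.00149). In 12 of 16 mice at 15 mo it was below all 3 mo mice. Cubilin (Cubn), a receptor for vitamin B12 with intrinsic factor, fell by 1.17 ± 0.19 from a median of 8.58 to 3.29 CPM. S100g kept falling in mice outside the comparison, by 1.67 ± 0.37 from 9 mo to 24 mo, where 6.55% of tested genes were lower, and by 1.27 ± 0.38 from 24 mo to 28 mo.

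Related genes were looked up after these values were seen. The calcium channel Trpv6, at most 1.76 CPM, fell by 1.93 ± 0.38, the sugar enzyme Sis by 0.82 ± 0.24 and the peptidase Ggt1 by 0.86 ± 0.22. The vitamin D receptor Vdr (-0.11, adjusted p = 0.23) and the calcium pump Atp2b1 (-0.13, adjusted p = 0.42) gave no call. The lipid enzyme Ugt8a (-1.47 ± 0.22) and Kremen2, a receptor of Wnt antagonists (-1.17 ± 0.11), were also among the 12 largest falls, with 15 of 16 mice at 15 mo below all 3 mo mice for Kremen2.

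Detoxifying enzymes moved in part. Among conjugating enzymes 7 of 36 tested members rose and 1 fell. The glutathione transferases Gsta1 (0.61 ± 0.10) and Gsta2 (0.58 ± 0.11) rose most, and for Gsta2 13 of 16 mice at 15 mo lay above all 3 mo mice. The bilirubin-conjugating enzyme Ugt1a1 fell (-0.49 ± 0.10). Without the 15 mo mouse 15 the count of rises was 4. Of 30 cytochrome P450 genes 4 fell, led by the drug-metabolizing Cyp3a13 (-0.46 ± 0.09), and 2 rose, led by Cyp1b1 (0.95 ± 0.20).

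In the endoplasmic reticulum list 6 of 33 tested members rose and none fell. Chac1 (0.68 ± 0.15) and Trib3 (0.61 ± 0.14), stress-induced targets, rose most, and Xbp1, a regulator of secretory cells, rose by 0.15 ± 0.05. The count was 3 and the adjusted p of Xbp1 0.169 without the 15 mo mouse 15, which also had the highest Igha, and 9 without the 3 mo mice 10, 12 and 16.

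Chaperone genes gave some of the largest falls, but these rested on few mice. Hspa1a and Hspa1b, the inducible Hsp70 genes, lie side by side on chromosome 17, and their promoters are shown because the pair moved together and is nearly identical in sequence. The RefSeq sequence of GRCm38.p6 before each start is at chr17:34972157-34972406 and chr17:34959239-34959488, both on the minus strand, written 5′ to 3′. Capitals mark the core of the heat shock element, GAANNTTC or TTCNNGAA, searched on both strands (each is its own reverse complement).
Hspa1a: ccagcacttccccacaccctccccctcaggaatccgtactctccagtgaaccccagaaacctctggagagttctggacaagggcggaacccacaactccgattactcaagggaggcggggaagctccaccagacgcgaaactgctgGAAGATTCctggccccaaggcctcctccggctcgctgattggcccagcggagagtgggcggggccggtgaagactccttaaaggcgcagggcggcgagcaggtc
Hspa1b: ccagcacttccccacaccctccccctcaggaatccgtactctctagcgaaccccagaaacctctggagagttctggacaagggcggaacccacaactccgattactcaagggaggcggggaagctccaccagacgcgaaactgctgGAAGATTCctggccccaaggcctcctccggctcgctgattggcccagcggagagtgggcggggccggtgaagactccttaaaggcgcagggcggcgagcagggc
The sequences share 247 of 250 bases, and each holds the motif once. Of the 22 genes of the heat shock list with a window, 10 hold it, among them Hsph1, Hspd1 and Dnaja1, which were not called. Dnajb1, a further called gene of the list, holds it in neither of its windows. The later window of Dnajb1 (chr8:83608298-83608547) lies downstream of the start that follows the earlier one. At least 1 match is present in 12.8% of the 32851 promoter windows of this length. Reads of the transcribed copies may also be hard to tell apart, so the split between the genes is uncertain.

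Hspa1a fell by 2.06 ± 0.37 (adjusted p = 3.07e-05) and Hspa1b by 1.67 ± 0.38 (adjusted p = 0.00202). The medians lay close together, at 8.32 CPM at 3 mo and 7.58 at 15 mo for Hspa1a. In 5 of the 3 mo mice, numbers 5, 10, 13, 15 and 16, Hspa1a lay between 43.3 and 186 CPM, while the other 11 lay between 4.99 and 11.9 and the 15 mo mice between 3.06 and 21.9. The same 5 mice held 208 to 444 CPM of the cochaperone Hsph1, against 38.9 to 129 in the other 3 mo mice, and 254 to 450 of Dnaja1 against 101 to 180. Other called genes had higher medians or wider ranges in these 5 mice. The metallothionein Mt2 fell by 0.95 ± 0.24, lay between 14.6 and 150 CPM in them (median 54.1) and between 12.9 and 25.3 in the other 3 mo mice (median 20.3), and lost its call without the 3 mo mouse 13 (adjusted p = 0.165). The anion channel Best2, described above, lay between 4.88 and 13.6 CPM in the 5 mice and between 2.87 and 6.16 in the others. Of 28 heat shock genes, Hspa1a, Hspa1b and Dnajb1 were called lower and none higher, and Dnajb1 (-0.23 ± 0.08) lost its call in 17 of 32 fits without one mouse.

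The C-type lectins Reg3b and Reg3g, which kill or repel bacteria, had folds whose size rested on 2 of the 3 mo mice. Reg3b fell by 2.35 ± 0.51 (adjusted p = 0.00105), with a median of 322 CPM at 3 mo and 165 at 15 mo. The 3 mo mice 14 and 6 held 9700 and 2110 CPM, 71.8% of the group's sum, and the next held 673. Without the 3 mo mouse 14 the log2 fold change of Reg3b was -1.28 (adjusted p = 0.0528) and that of Reg3g -0.99 (adjusted p = 0.0517). Reg3g fell by 1.87 ± 0.40, with 2080 and 690 CPM in the same 2 mice and 8 of the 3 mo mice above all 15 mo mice. The 3 mo mouse 14 also had the highest 3 mo values of Duox2 (553 CPM) and Nos2 (18.9 CPM).

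**Figure D5:**
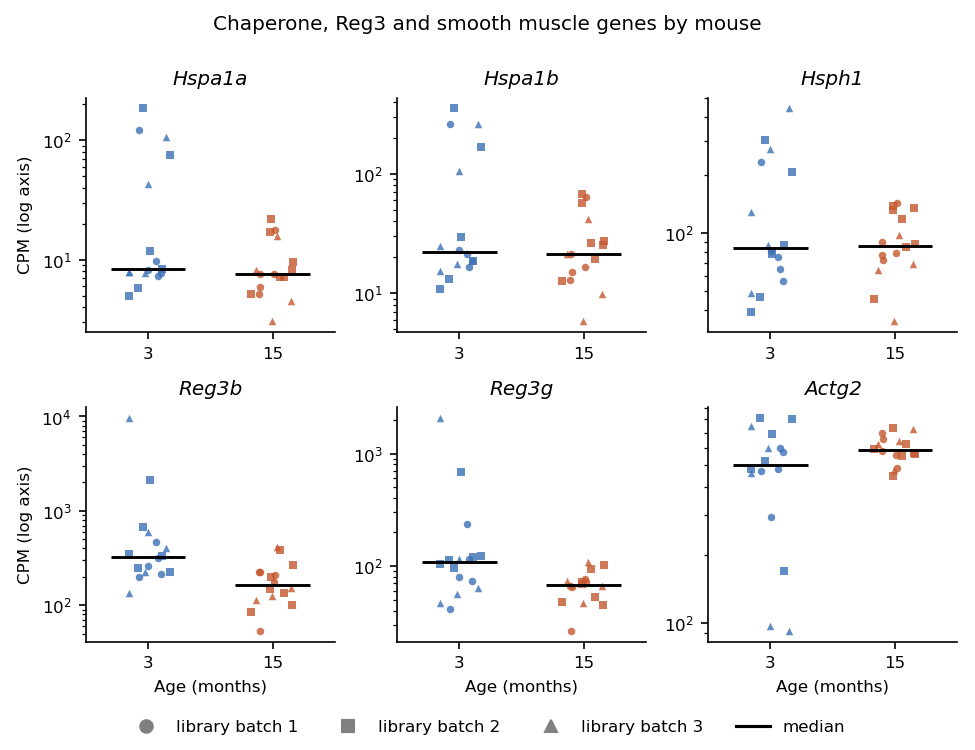
CPM on a log axis of 3 chaperone genes, Reg3b, Reg3g and the smooth muscle actin gene Actg2 in each of 16 mice at 3 mo and at 15 mo, with lines for medians. The 5 highest Hspa1a values (43.3 to 186 CPM) and the 3 lowest Actg2 values (91.9, 97.1 and 169 CPM) all belong to 3 mo mice.

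In the main fit few stromal and muscle genes were called. In the smooth muscle list 23 of 23 members had a positive fold change (median 0.19), but only Casq2, the calcium store protein, passed the test (0.58 ± 0.09). The summed level lay between 2417 and 10275 CPM at 3 mo and between 7115 and 9376 at 15 mo. Among 39 tested collagen genes Col6a5 rose with separate ranges, from a median of 6.11 to 13.4 CPM (1.28 ± 0.12, adjusted p = 4.84e-14), Col26a1 (1.29 ± 0.27, under 1 CPM) and Col8a2 (0.46 ± 0.15) rose, and Col8a1 fell (-0.78 ± 0.15). The gelatinase Mmp9 rose by 0.91 ± 0.15. In the list of collagen processing and elastic matrix genes Efemp1 rose (0.36 ± 0.09) and 3 of 39 fell, elastin Eln by 0.35 ± 0.11, Fbn1 by 0.25 ± 0.09 and Mfap5 by 0.33 ± 0.12. Fbn1 and Mfap5 lost their calls in 14 and 19 of 32 fits without one mouse.

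Calls among stromal and neural genes depended on the 3 mo mice with little smooth muscle RNA. Without the 3 mo mice 10, 12 and 16, the rise of Col8a2 lost its call (adjusted p = 0.189), 5 collagen genes were lower in place of 1, 4 enteric glia genes in place of 2, and 7 of 30 enteric neuron genes in place of 0. With the smooth muscle and B cell list means as covariates these counts were 8, 7 and 17. The smooth muscle mean is not independent of age, since 23 of 23 members of that list had a positive fold change. The part of muscle content in the comparison was not tested. In the main fit the neuropeptide gene Calca was the only neuron gene called (1.99 ± 0.31), on 35 read pairs over all 3 mo mice and 141 over all 15 mo mice. Among the glia genes lower was Fabp7 (-0.58 ± 0.19), a fatty acid-binding protein under 1 CPM, which lost its call without the 3 mo mouse 8 (adjusted p = 0.108). In blood vessels von Willebrand factor Vwf rose (0.34 ± 0.07), with 15 of 16 mice at 15 mo above all 3 mo mice, and the receptor Robo4 fell (-0.20 ± 0.06).

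Renewal, energy metabolism and growth machinery gave almost no calls. Neither edgeR nor DESeq2 called any of 37 cell cycle genes, 0 of which had an unadjusted p below 0.05, and proliferation marker Mki67 lay between 110 and 287 CPM at 3 mo and between 137 and 214 at 15 mo (-0.02 ± 0.08). Of 22 crypt stem cell and Wnt target genes the stem cell receptor Lgr5 fell (-0.31 ± 0.10, adjusted p = 0.0452), a call lost without the 15 mo mouse 16 (adjusted p = 0.103). Both tools also called 0 of 79 cytosolic ribosomal protein genes and 0 of 13 mitochondrial genome transcripts, with 0 and 1 at an unadjusted p below 0.05, and 1 of 79 nuclear respiratory chain genes did, Ndufa4 (-0.17 ± 0.05). One gene in 32 of fatty acid oxidation and ketogenesis rose, the fuel switch Pdk4 (0.51 ± 0.17). Lipid synthesis gave 1 rise and 1 fall in each list, among them Acacb (0.27 ± 0.05) and Elovl6 (-0.16 ± 0.05) for fatty acids and the rise of Tm7sf2 (0.15 ± 0.04) for cholesterol. Ndufa4 and Pdk4 lost their calls in 2 and 4 of 32 fits without one mouse.

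Hormone and tuft cell lists had few calls. Of 23 enteroendocrine genes Cck rose (0.41 ± 0.14) and Gcg fell (-0.20 ± 0.07), and Gcg lost its call in 21 of 32 fits without one mouse. Of 16 tuft cell genes Hpgds (0.21 ± 0.06) and Gnat3 (0.37 ± 0.12) rose, 4 had an unadjusted p below 0.05 and 15 had a positive fold change. Of 16 genes of MHC class I and the immunoproteasome H2-M3 rose (0.20 ± 0.06) and Erap1 fell (-0.13 ± 0.04), and of 16 adipocyte genes Gpd1 rose (0.28 ± 0.08). Of 23 senescence and p53 genes Glb1 (-0.18 ± 0.04) and Igfbp3 (-0.23 ± 0.08) fell, and of 24 DNA methylation and Polycomb genes Jarid2 and Dnmt3a fell, each by 0.13 ± 0.04. Igfbp3, Dnmt3a and Erap1 lost their calls without the 15 mo mouse 16, with adjusted p-values of 0.113, 0.151 and 0.152. Igfbp3 also lost its call without the 3 mo mouse 2 or 15, and Erap1 without the 3 mo mouse 12. The call of Dnmt3a was lost as well without the 3 mo mouse 13 or the 15 mo mouse 9. Without the 3 mo mice 10, 12 and 16, Cck (adjusted p = 0.120), Gcg (0.154), Erap1 (0.142) and Jarid2 (0.104) lost theirs. The lists of immediate early, circadian clock, interstitial pacemaker, lymphatic, mesothelial, skeletal muscle, red blood cell and posterior position genes had no called member by edgeR or DESeq2, with 6 of 31, 3 of 19, 0 of 6, 0 of 7, 1 of 5, 0 of 5, 4 of 5 and 0 of 4 genes at an unadjusted p below 0.05. Red blood cell genes had a median of 0.58, with a summed level between 5.64 and 21.5 CPM at 3 mo and between 8.83 and 32.9 at 15 mo. Posterior position genes had a median of -0.03, with Hoxb13 between 4.30 and 38.4 CPM at 3 mo and between 7.10 and 35.4 at 15 mo.

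The levels at the other ages are given for the genes called between 15 mo and 3 mo. The 779 rises had a median log2 fold change of 0.46 between 15 mo and 3 mo, and, given side by side because these comparisons share mice, of 0.27 between 9 mo and 3 mo, 0.16 between 15 mo and 9 mo, 0.01 between 24 mo and 15 mo and -0.03 between 28 mo and 15 mo. The 641 falls had medians of -0.23, -0.17, -0.08, 0.01 and 0.01 in the same order. Since the genes were chosen on the comparison of 15 mo with 3 mo, and the comparisons share its mice, no time course is read from these medians.

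The comparison of 24 mo with 9 mo rests on other mice, and 8.93% of all tested genes were higher and 6.55% lower in it. Of the 779 rises 268 were higher at 24 mo than at 9 mo (34.4%, or 16.4% of the 1636 genes higher there) and 25 were lower. Of the 641 falls 168 were lower at 24 mo (26.2%, or 14% of 1201) and 17 were higher. Between 28 mo and 24 mo, where 5.66% of tested genes were higher and 6.01% lower, the rises split with 51 higher and 120 lower. Among the falls 61 were higher and 36 lower. Vsig2 had means of 21.7, 40.6, 55.3, 85.2 and 95.6 CPM at 3, 9, 15, 24 and 28 mo. Ceacam10 had its highest mean at 15 mo, with 70.4, 108, 137, 114 and 103 CPM.

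The called genes were also counted by gene type. Of 593 tested lincRNA genes 58 were higher (9.78%) and 10 lower (1.69%), of 529 antisense genes 25 were higher (4.73%) and 8 lower (1.51%), and of 15263 protein-coding genes 611 were higher (4%) and 592 lower (3.88%). Across genes the fold change ran with expression level and with transcript length. Spearman's rho between mean CPM and fold change was -0.140 over 18325 genes, and in the fifth of genes with the lowest level 6.03% were called higher and 2.26% lower. The median over the fifth of genes with the shortest merged exons was 0.02 and over the fifth with the longest -0.02, and the share of genes called higher was 5.22% and 2.51%. Spearman's rho between length and fold change was -0.117 over 18308 genes, which are not independent, and -0.0549 without the 15 mo mouse 16, whose low mucin and high mitochondrial levels are given above. The part of RNA quality in this was not tested.

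The spread between mice, which was compared without a test, was often wider at 3 mo. The SD of log2(CPM + 0.5) was larger at 3 mo for 60.6% of genes, and the median ratio of the SD at 15 mo to that at 3 mo was 0.911. Without the 3 mo mice 10, 12 and 16 these values were 52.9% and 0.978.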

How the data were processed

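Colon RNA of 83 mice had been sequenced, of which 32 (3 mo and 15 mo) are described. The authors trimmed reads with cutadapt 2.8, filtered them, aligned them to GRCm38.p6 with HISAT2 2.1.0, kept unique reads with SAMtools 1.9, and counted proper pairs by strand with featureCounts (Subread 2.0.1). The deposited values are raw, unnormalized counts. Symbols, types and positions came from GENCODE M21 (GRCm38, an earlier release than the study's), in which 37652 of 37764 genes were found. Promoters came from RefSeq.

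Counts of all 83 mice were fitted with edgeR 4.0.16 in R 4.3.3 (filterByExpr by age, 18325 genes kept, TMM, age and library batch as terms, quasi-likelihood F-test, Benjamini-Hochberg adjustment, threshold 0.1). The test was checked on simulated data. In every pair of replicates the counts differed by at least 11.8 times the sampling noise (chi-square per degree of freedom), so each library was used as a sample of its own.

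The groups, the 45 gene lists and the named genes were chosen with earlier results of these data known, by this rule: among called protein-coding genes of at least 1 CPM with one direction in all 3 batches, the 12 largest rises and falls and the 5 lowest p-values each way, the called members of each list up to 5, and up to 2 of the highest level where few were called. Further called members, secretoglobins, IgG genes, genes with separate ranges and genes the text marks so were chosen after their values were seen. Alternatives were DESeq2 1.42.0, its size factors, no filter, a minimum of 10 counts, a fit that left out batch, a block for replicate number, only the ages compared, composition covariates, a threshold of 0.05 and leaving out each mouse. The bisulfite data were not used here. Some genes that the naming rule took are not reported here.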

Additional observations from a re-analysis of the deposited data

How the results depend on the processing

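The count of genes different at 15 mo against 3 mo was 1420. It was 1621 with DESeq2, 1448 with DESeq2's size factors in edgeR, 1267 without a filter on low counts, 1138 with at least 10 counts in every mouse of both ages, 1380 without the batch term, 1183 with only mice of 3 mo and 15 mo, 1850 with the smooth muscle and B cell list means as covariates, 1011 at an adjusted p below 0.05, and, as settings chosen after seeing the data, 1478 without the 3 mo mice 10, 12 and 16 and 1497 with bias-adjusted quasi-likelihood. With the covariates 993 genes were lower in place of 641. Leaving out each of the 32 mice in turn gave 1198 (without the 15 mo mouse 15) to 1685 (without the 3 mo mouse 5) called genes, 587 to 921 higher and 499 to 794 lower. The replicate numbers did not pair the mice: of 16 same-numbered pairs 4 had a correlation of deviations above 0.1 (median -0.05, against 0.01 for other numbers), and 2 mice correlated best with their own number. The replicate number as a block gave 1340 genes, 1284 of them among the 1420. Of the 110 called genes that the naming rule took, 99 were tested with the 10-count minimum, 106 with only mice of 3 mo and 15 mo, and all in the other settings, and no tested one turned direction. DESeq2, its size factors and bias-adjusted quasi-likelihood lost none of the 110 calls, the block lost 6, no filter and the fit without the 15 mo mouse 15 lost 7 each, the threshold of 0.05 lost 15, and the covariates, the fit without the 3 mo mice 10, 12 and 16, and the fit without the 15 mo mouse 16 lost 9 each. Depth limits genes under about 1 CPM, such as Calca and Bhmt2, most.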
